A study of Macaca mulatta with 24 samples.

Results

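Steroid hormones are made active and inactive inside the uterus by small sets of enzymes, and the genes of 10 such enzymes were looked for on the arrays. They were HSD17B2, HSD17B4, HSD17B8, HSD11B1, HSD11B2, AKR1C3, STS, SULT1E1, SRD5A1 and SRD5A3, and a gene was taken where the array files carry exactly that symbol as the name of a probe. That gave 6 of the 10, out of 18976 names on the array, namely HSD17B4, AKR1C3, HSD11B1, SULT1E1, SRD5A1 and SRD5A3, each with 1 probe of 60 bases printed in 2 spots. Another 3 enzymes, HSD17B2, HSD17B8 and HSD11B2, were found under other names after the 4 absent symbols had been seen, so they are described beside the 6. No probe was found for STS under any naming used, and STS is not analysed here.

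The samples were endometrium, the lining of the uterus, of rhesus monkeys (Macaca mulatta, females of proven fertility), with 4 arrays in each of 6 groups. The groups were conception cycles, in which animals were mated and pregnancy was proven, at day 2, 4 and 6, and non-mated cycles with normal ovulation at day 2, 4 and 6. Days are counted after ovulation in the descriptions of both cycle types, whereas the source names of the conception samples count them after fertilization. No age, strain or hormone treatment is stated, 8 non-mated samples carry day 2 in the title but day 4 or 6 in every other label (the other labels were used), and it is not stated whether each array stands for an animal of its own. The p-values below therefore reflect the scatter among arrays, part of which may be technical.

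In the endometrium after ovulation, progesterone from the ovary turns the glands to secretion and limits the action of estradiol. The hydroxysteroid dehydrogenases of the HSD17B family swap a keto and a hydroxyl group on estrogens and androgens, and so move them between weaker and stronger forms. The HSD11B pair does the same for glucocorticoids, HSD11B1 mainly making cortisol from cortisone and HSD11B2 mainly the reverse. SULT1E1 adds a sulfate to estrogens, which blocks their binding to the receptor, STS takes it off, and the SRD5A reductases act on the double bond of testosterone and progesterone.

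The probes on which the results turn are shown by their first 30 of 60 bases, 5′ to 3′, as the array files give them, since each value below is the brightness of such a strand after hybridisation. The positions are those of the files on the rheMac2 build, and where in each transcript they lie (exon or UTR) was not looked up, because no annotation of that build was used here. HSD17B4 was probed at chr6:116067179-116067238 (plus strand), AKR1C3 at chr9:5373899-5373958 (plus), HSD11B1 at chr1:160660572-160660631 (minus), HSD17B2 at chr20:80239326-80239385 (plus), HSD17B8 at chr4:32921152-32921211 (plus) and HSD11B2 at chr20:65739338-65739397 (plus). No base is in capitals because no part of a probe was singled out.
HSD17B4: agctaagatgcaggggaaattgcttaacat
AKR1C3: tggacccatcgcctctacttaaatccattc
HSD11B1: taatgaatgtcatgcaccactgcagccagc
HSD17B2: agtgggaatgtcatagtcttgaaatgaaaa
HSD17B8: aatgctgaatatgggaagcaggggtgcttg
HSD11B2: ttgactggctcaagaattagggccccaact
The AKR1C family holds near-identical genes, and RNA of one can light the probe of another. The longest run that the AKR1C3 probe shared with the AKR1C1 probes of the array was 6 bases. Probes can lie at different places of their transcripts, so this does not show whether AKR1C1 RNA lights the AKR1C3 probe. The match of the AKR1C3 probe to the transcripts of AKR1C1 and of the other AKR1C genes was not checked.

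The level used throughout is the log2 processed signal of a probe minus the 75th percentile of its array, so 0 is the brightness that 75% of the probes stay below. A probe is called well above background when the scanner software flags it so. By that flag, 21 arrays detected between 53.3% and 71.5% of their probes. The remaining 3, all non-mated, detected 4.33% (day 2 replicate 3), 37.9% (day 4 replicate 1) and 21.8% (day 4 replicate 2), and are called the weak arrays. Of the 4 epithelial markers of a list of 11 that were on the array (KRT19, CLDN3, CLDN4 and PAX8), all 4 were well above background on each of the 21 other arrays, and of 8 stromal markers at least 7 were.

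The 6 enzymes fell into a clearly detected gene, a pair near the limit and 3 that were almost never detected. HSD17B4 was well above background on 23 of 24 arrays, missing only on the weak array of non-mated day 2. AKR1C3 was so on 10 arrays, HSD11B1 on 8, SRD5A3 on 2, and SULT1E1 and SRD5A1 on 1 each. Only HSD17B4 and AKR1C3 passed the filter of 3 arrays well above background out of 4 in at least 1 group, which kept 12780 of 20217 probes and, with 1 probe per name, 12053 features for the test. The other 4 enzymes were left to description.

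**Figure D1:**
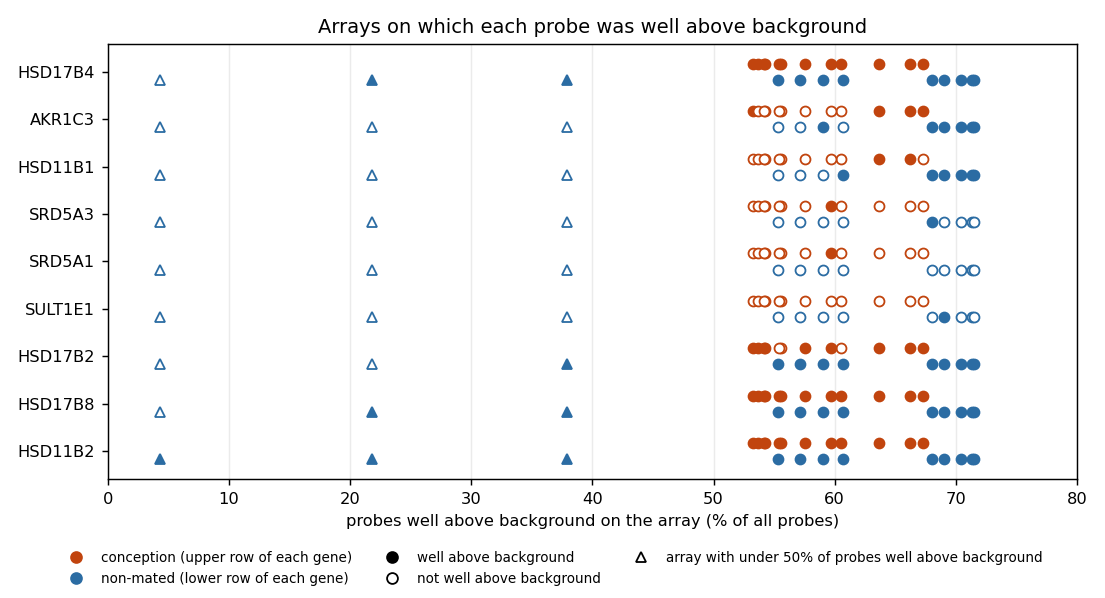
Each row is a probe and each point an array (conception orange, non-mated blue), placed by the percentage of all probes that were well above background on it; filled points mark arrays where the probe itself was well above background, and triangles the 3 weak arrays. HSD17B4, HSD17B8 and HSD11B2 are filled on all 21 other arrays, while AKR1C3 and HSD11B1 are filled mostly towards the right.

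Whether AKR1C3 and HSD11B1 were detected went with how much was detected on the array as a whole. Split at a share of 62%, a value chosen after the data were seen, AKR1C3 was well above background on 8 of 8 arrays over it and on 2 of 13 arrays between 50% and 62%. HSD11B1 was so on 7 of 8 and on 1 of 13. The arrays over 62% were 3 conception arrays, all at day 2, and 5 non-mated arrays. On scan day 1 the shares ran from 53.7% to 67.3% on 6 conception arrays, against 68.0% to 71.5% on 5 non-mated arrays that were not weak, and there conception and non-mated arrays also lay on different slides. On that scan day HSD11B1 was detected on 1 of 6 conception and 5 of 5 non-mated arrays, and AKR1C3 on 2 of 6 and 5 of 5. On scan day 2, HSD11B1 was detected on 1 of 6 conception and 1 of 4 non-mated arrays, and AKR1C3 on 2 of 6 and 1 of 4. The part of the array share in the detection of either gene was not tested.

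HSD17B4, the peroxisomal enzyme that oxidises estradiol and also works in the breakdown of fatty acids, had group means within 0.58 of each other on the log2 scale. Its levels in conception cycles were 1.38, 2.06, 2.27 and 1.98 on the day 2 arrays, 1.70, 1.87, 1.16 and 2.59 on the day 4 arrays, and 1.97, 1.40, 1.17 and 1.99 on the day 6 arrays. In non-mated cycles they were 2.17, 1.76, -0.26 (weak array) and 2.18 on the day 2 arrays, 0.87 (weak array), 2.27 (weak array), 1.86 and 1.80 on the day 4 arrays, and 2.18, 2.37, 2.33 and 1.29 on the day 6 arrays. The groups overlapped at every day. The value farthest from its group came from the weakest array, and non-mated day 6 replicate 4 (1.29) also lay apart from the other arrays of its group. In order of their means the groups were non-mated day 6 (2.04 ± 0.51), conception day 2 (1.92 ± 0.38), conception day 4 (1.83 ± 0.59), non-mated day 4 (1.70 ± 0.59), conception day 6 (1.63 ± 0.41) and non-mated day 2 (1.46 ± 1.16; SD, n = 4 each). No neighbours in that order lay farther apart than their spread.

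Neither HSD17B4 nor AKR1C3 passed an adjusted p of 0.05 in any of the 8 comparisons of the limma fit. Few features of any kind did. The share of the 12053 features called was 0% for conception against non-mated at day 2 and at day 4, 0.00830% at day 6, 0.0166% for day 6 against day 2 in conception cycles, 0% for the same in non-mated cycles, 0.00830% for the change over days in conception cycles, and 0% for that change in non-mated cycles and for the interaction of cycle type and day. The features called, named here after their values were seen, were PIWIL4 at day 6 and TMEM61 and CFAP100 over the days of conception. The members' count of 0 is therefore close to the background. Where no feature was called, the unadjusted p was under 0.05 for 302 features at day 2, 709 at day 4, 394 for day 6 against day 2 in non-mated cycles, 282 for the change over days there and 157 for the interaction. Among the members it was under 0.05 for AKR1C3 in 1 comparison, day 6 against day 2 in non-mated cycles.

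For HSD17B4 the conception minus non-mated difference was 0.46 ± 0.47 (SE; 95% interval -0.52 to 1.44) at day 2, with a limma adjusted p of 0.792. Without the weak arrays it was -0.11 ± 0.34 (interval -0.82 to 0.60), so its sign at day 2 came from 1 array. At day 4 it was 0.13 ± 0.47 (adjusted p = 0.930), and at day 6 it was -0.41 ± 0.47 (interval -1.39 to 0.57; adjusted p = 1.00). Within scan days the day 6 difference was -0.77 and -0.05, with 2 arrays against 2 on each. Day 6 minus day 2 gave -0.29 ± 0.47 in conception cycles (adjusted p = 0.997) and 0.58 ± 0.47 in non-mated cycles (adjusted p = 0.760). The non-mated value was 0.01 ± 0.34 without the weak arrays. The interval of this last comparison with all arrays, -0.40 to 1.56, was the one that reached farthest from 0 in HSD17B4.

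AKR1C3, a reductase that makes testosterone from androstenedione and also acts on prostaglandins and progesterone in humans, was dim everywhere. Its levels in conception cycles were -5.42, -4.27, -4.90 and -3.83 at day 2, with the last 3 well above background. They were -5.60, -2.28, -3.87 and -4.77 at day 4, where only replicate 2 was, and -5.57, -4.58, -6.13 and -4.88 at day 6, where none was. In non-mated cycles they were -4.50, -3.76, -0.26 (weak array) and -3.94 at day 2, with replicates 2 and 4 well above background, -3.66 and -1.57 (both weak arrays) and -4.79 and -5.35 at day 4, with the last 2 so, and -4.53, -5.05, -6.57 and -5.04 at day 6, with replicates 2 and 3 so. The highest value backed by detection was thus a single conception array of day 4. The groups overlapped at every day.

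AKR1C3 had its widest difference in non-mated cycles, where day 6 minus day 2 was -2.18 ± 0.86 (unadjusted p = 0.0191; limma adjusted p = 0.760). Without the weak arrays it was -1.23 ± 0.63 (adjusted p = 1.00), so the weakest array made up a large part of it. At day 2 the conception minus non-mated difference was -1.49 ± 0.86 with all arrays (adjusted p = 0.791) and -0.54 ± 0.63 without the weak ones. At day 4 the sign turned, with -0.29 ± 0.86 over all arrays and 0.94 ± 0.71 without the weak ones. At day 6 it was 0.01 ± 0.86. In conception cycles AKR1C3 was detected on 0 of 4 arrays at day 6 and on 3 of 4 at day 2, with means of -5.29 and -4.61 (limma adjusted p = 0.997). Conception day 2 was the only group through which AKR1C3 passed the filter. The bound on the fold was 1.03 lower at day 6, which is close to no difference and holds no sampling error. That bound takes the mean over all arrays of the group with detection, with its undetected arrays at their own level. For the group without detection it takes, on each array, the higher of the probe's own level and the dimmest level that was well above background. It is therefore not a strict lower limit on the fold.

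HSD11B1, which mainly regenerates active glucocorticoid, was detected in conception cycles only at day 2. There its levels were -5.97, -4.44, -4.57 and -6.28, with replicates 2 and 3 well above background. They were -5.97, -5.22, -5.62 and -5.35 on the day 4 arrays and -4.88, -5.16, -4.44 and -5.69 on the day 6 arrays. In non-mated cycles its levels were -3.11, -5.25, -0.26 (weak array) and -2.66 at day 2, with replicates 1 and 4 well above background. They were -3.66 and -1.57 (both weak arrays), -4.06 and -5.46 at day 4, with the last 2 well above background, and -4.82, -5.06, -1.56 and -5.27 at day 6, with replicates 2 and 3 so. Leaving out the weak arrays, 4 of 9 non-mated arrays (2 at day 2, 1 at day 4 and 1 at day 6) lay above the highest of 12 conception arrays, and all 4 were well above background. Among them, day 2 replicate 4, day 4 replicate 3 and day 6 replicate 3 were on scan day 1. Their slides held no conception array. The share of all features with such a count is not given, so the count does not set HSD11B1 apart from other dim probes.

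At most 2 of 4 arrays of a group detected HSD11B1, so it was not in the fit. With no filter the conception minus non-mated difference was -2.49 ± 0.93 at day 2 (unadjusted p = 0.0139; limma adjusted p = 0.555), -1.85 ± 0.93 at day 4 (adjusted p = 0.848) and -0.86 ± 0.93 at day 6 (adjusted p = 0.979). The values at days 2 and 4 include the weak arrays, on which HSD11B1 was not detected. At day 6, 0 of 4 conception and 2 of 4 non-mated arrays detected HSD11B1, with means of -5.04 and -4.18. The bound on the fold was 1.24 lower in conception cycles, without sampling error, and it rested on non-mated replicate 3. At day 4 the bound was 2.04-fold with all arrays (means -5.54 and -3.69) and fell below 1 without the weak ones. The weak arrays, without detection, entered the 2.04 at their own levels of -3.66 and -1.57. Within scan days and without the weak arrays, the difference was -2.76 (2 arrays against 1) and -1.03 (2 against 2) at day 2, and -1.75 and 0.03 (2 against 2 each) at day 6. The -1.75 came from non-mated replicate 3 (-1.56), since the other non-mated array of that scan day (-5.06) lay between the conception arrays (-4.44 and -5.69).

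**Figure D2:**
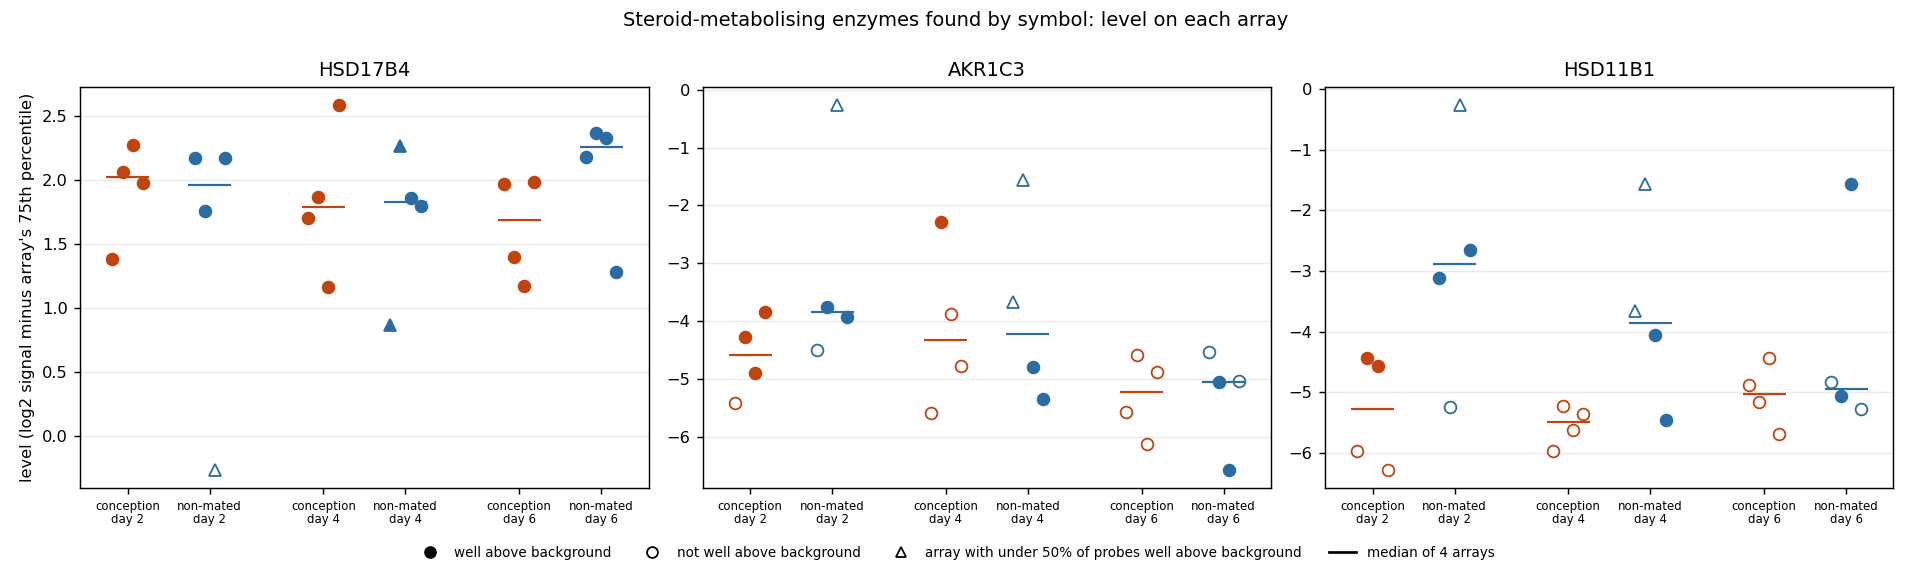
Levels of HSD17B4, AKR1C3 and HSD11B1 on each array (vertical axis, log2 signal minus the array's 75th percentile; each panel has its own scale) in conception (orange) and non-mated (blue) cycles at days 2, 4 and 6; filled points are well above background, triangles are weak arrays and lines are medians of 4 arrays. HSD17B4 overlaps between cycle types at each day. For HSD11B1, 3 filled non-mated points lie between -3.11 and -1.56, and those at -2.66 and -1.56 came from a slide without conception arrays.

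SRD5A1, a steroid reductase, SRD5A3, a relative that is also needed to build the sugar chains of glycoproteins, and SULT1E1, the estrogen sulfotransferase, stayed at or near background. SRD5A3 was well above background on conception day 6 replicate 3 (-4.26) and on non-mated day 4 replicate 3 (-5.35). SRD5A1 was so on conception day 6 replicate 3 (-5.02), and SULT1E1 on non-mated day 4 replicate 4 (-4.94). The array that detected both reductases, conception day 6 replicate 3, also had 616 spots flagged as outliers, against at most 50 on the others. With at most 1 array of 4 detecting any of these genes in a group, the averages rest mostly on arrays without detection, and no fold between groups is given. SULT1E1 was not detected on any of 12 conception arrays, which sets only an upper limit on its level and does not show that it was absent.

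HSD17B2, which turns estradiol into the weaker estrone and is known as a progesterone-driven enzyme of the human endometrial glands, had the widest spread within a group of the 5 enzymes that passed the filter, an SD of 3.59 at conception day 6. Its levels in conception cycles were 1.07, 1.64, -0.33 and 1.30 at day 2, all well above background. At day 4 they were -5.47, -3.06, -5.62 and -0.30, with replicates 2 and 4 well above background, and at day 6 they were -4.75, -3.00, -0.82 and 3.57, with the last 3 so. In non-mated cycles they were -0.11, 1.61, -0.26 (weak array, not detected) and 0.35 on the day 2 arrays, 1.39 (weak), -1.48 (weak, not detected), -2.38 and 0.58 on the day 4 arrays, and 0.11, -1.95, -0.84 and 2.33 on the day 6 arrays. The conception arrays of day 2 lay together, and those of day 6 ran from an array without detection to the highest level of the gene.

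At day 4 HSD17B2 averaged -3.61 ± 2.50 in conception cycles and -0.47 ± 1.75 in non-mated cycles (SD, n = 4 each). The difference was -3.14 ± 1.37 (interval -5.99 to -0.29; unadjusted p = 0.0323; limma adjusted p = 0.704), and without the weak arrays -2.71 ± 1.77 (adjusted p = 0.859). The groups overlapped. Its F-test over the days of conception had an unadjusted p of 0.0120 and an adjusted p of 1.00, or 0.320 without the weak arrays. At day 6 the difference was -1.16 ± 1.37, with opposite signs on the scan days, 2.77 on scan day 1 and -5.09 on scan day 2 (2 arrays against 2 each). In bulk tissue, fewer gland cells and less RNA per cell cannot be told apart. The epithelial marker mean at day 4 had a median of 2.78 in conception cycles and 2.22 in non-mated cycles (weak arrays included). On the non-mated arrays of day 4 that were not weak it was 2.91 and 2.53. Of the 4 epithelial markers, 4 were higher in conception cycles at day 4 with all arrays, but 1 without the weak ones. The part of these markers in the HSD17B2 values was not tested.

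HSD17B8, a mitochondrial member of the family that prefers to oxidise estradiol, lay between 1.58 and 3.46 on the 21 arrays that were not weak. It was 1.58, 2.16, 2.79 and 2.71 in conception cycles on the day 2 arrays, 1.76, 1.85, 2.32 and 2.46 on the day 4 arrays, and 1.79, 2.12, 3.46 and 2.88 on the day 6 arrays. In non-mated cycles it was 2.26, 2.43, -0.13 (weak array, not detected) and 2.79 on the day 2 arrays, 2.36 and 0.62 (both weak), 2.72 and 2.95 on the day 4 arrays, and 2.53, 2.72, 2.92 and 2.61 on the day 6 arrays. Cycle types overlapped at days 2 and 6. At day 4 without the weak arrays, with 4 conception arrays against 2 non-mated ones, the difference was -0.74 ± 0.40 (interval -1.58 to 0.11; limma adjusted p = 0.859). That fit called 0% of features at that day. With all arrays it was -0.07 ± 0.56 (adjusted p = 0.974).

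HSD11B2, which inactivates glucocorticoid, was detected on all 24 arrays. Its levels in conception cycles were 5.03, 5.65, 4.98 and 4.92 on the day 2 arrays, 5.29, 5.05, 4.17 and 2.84 on the day 4 arrays, and 5.33, 3.93, 4.05 and 4.34 on the day 6 arrays. In non-mated cycles they were 4.88, 5.58, 2.57 (weak array) and 5.14 on the day 2 arrays, 5.45 and 3.88 (both weak), 5.01 and 4.47 on the day 4 arrays, and 5.92, 5.02, 5.12 and 5.06 on the day 6 arrays. At day 6, 3 of 4 conception arrays lay below all non-mated arrays and replicate 1 lay among them. How many of all features show the same is not given. The day 6 difference was -0.87 ± 0.58 (interval -2.07 to 0.32; limma adjusted p = 1.00), and without the weak arrays -0.87 ± 0.43 (interval -1.79 to 0.04; adjusted p = 0.546). It was -0.88 and -0.87 within the scan days.

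The epithelial marker mean was also lower at day 6, at 2.09 to 2.55 (median 2.25) in conception cycles and 2.45 to 3.18 (median 2.94) in non-mated cycles, although 2 of its 4 markers were higher in conception cycles. It was also lowest among the 21 arrays, at 1.30, on conception day 4 replicate 4, the array with the lowest HSD11B2 of those 21. Conception day 2 replicate 2 had the highest HSD11B2 of its group and a smooth muscle marker mean (MYH11, DES and ACTG2) of 5.86, against 0.06 to 0.66 on the other arrays of that group. The part of gland or muscle content in the HSD11B2 values was not tested.

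**Figure D3:**
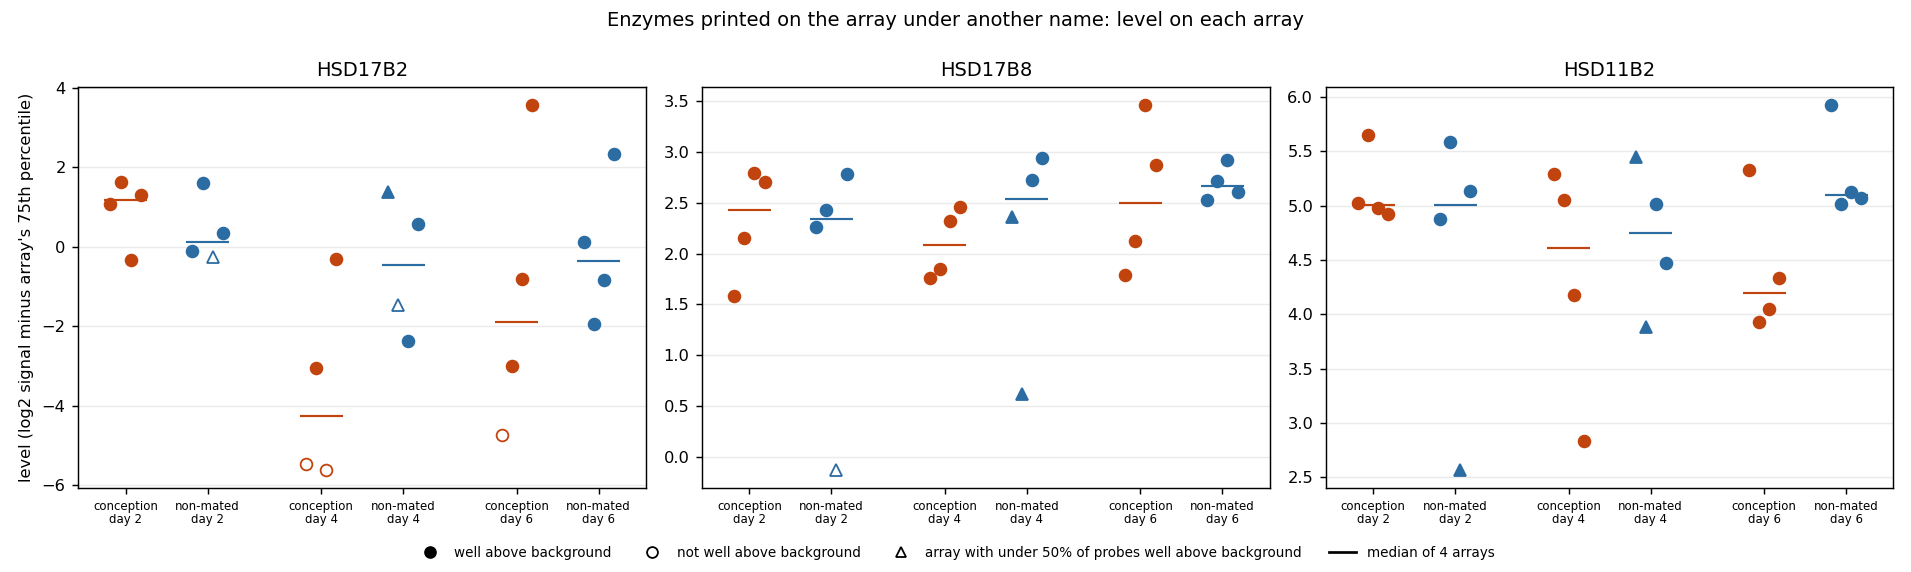
Levels of HSD17B2, HSD17B8 and HSD11B2 on each array, drawn as in the plot of the enzymes found by symbol (each panel has its own vertical scale). HSD17B2 spans -5.62 to 3.57 in conception cycles, while HSD17B8 and HSD11B2 keep to narrower ranges outside the weak arrays.

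**Figure D4:**
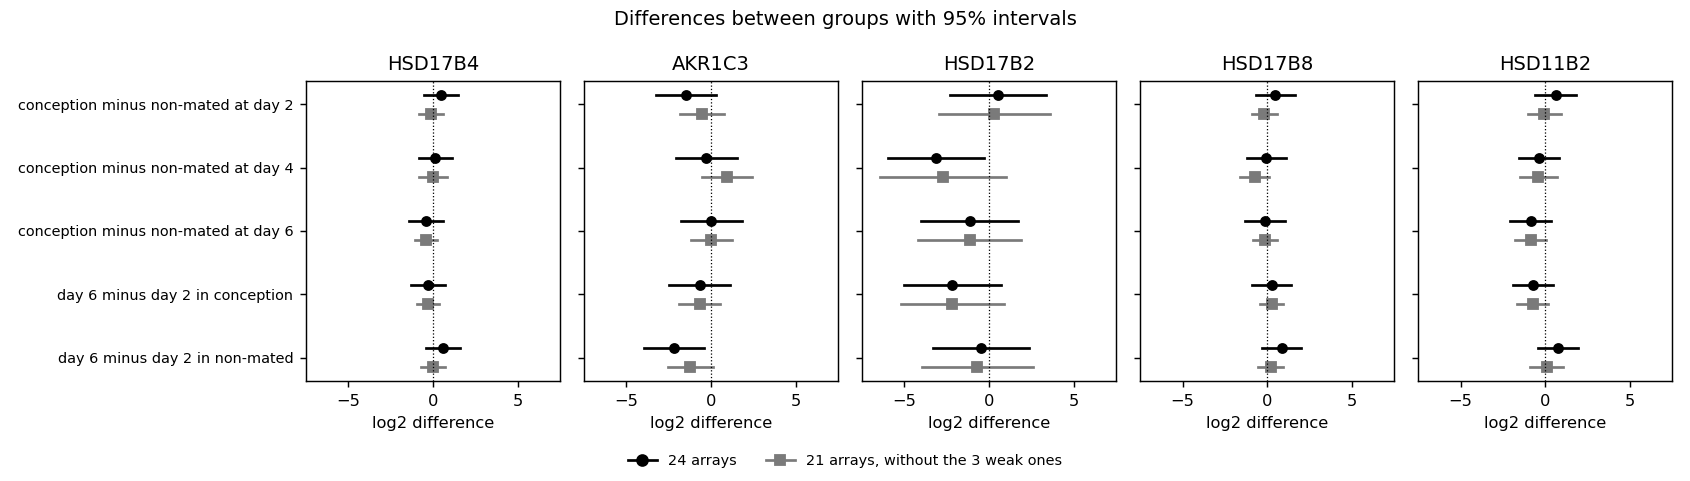
Log2 differences (points) with 95% intervals (lines) for the 5 enzymes that passed the filter in 5 comparisons, from the limma fit of 24 arrays (black) and of 21 arrays without the weak ones (grey). With 24 arrays all intervals hold 0 except those of HSD17B2 at day 4 (-5.99 to -0.29) and of AKR1C3 for day 6 minus day 2 in non-mated cycles (-3.98 to -0.39), and with 21 arrays all hold 0; no difference passed the adjusted threshold.

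The genes most like the 2 fitted members over the 21 arrays were found by Pearson correlation of levels among features with a symbol, as a description. HSD17B4 ran most closely with ECD (0.78), ANXA5 (0.76) and MME (0.76), the last a peptidase of the stromal cell surface. AKR1C3 ran most closely with PAEP (0.77), the gene of the secretory protein glycodelin, with ANXA4 (0.71) and with ASAP2 (0.68). PAEP was well above background on all 21 arrays, whereas AKR1C3 was so on 10, so that most of its values in this comparison were near background. The arrays share slides, scan days and overall signal, which enter these values as well.

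The wider pathway was described with 7 lists of genes, searched by symbol and also by gene ID and accession. Of 39 tested genes none was called in any of the 8 comparisons with all 24 arrays. The limma p before adjustment was under 0.05 for 3 at day 4, 4 at day 6, 1 for day 6 against day 2 in each cycle type, 1 for the change over days of conception cycles and 0 in the other comparisons. Without the weak arrays these counts were 2 at day 4, 8 at day 6, 3 (conception) and 1 (non-mated) for day 6 against day 2, and 5 for the change over days of conception cycles. The interaction had 1 and the other comparisons 0. The share of all features under 0.05 is not given for day 6 or over the days of conception, so no excess can be read from these counts. Of 9 other HSD17B genes 6 were on the array and 4 were tested, HSD17B6, HSD17B7, HSD17B10 and HSD17B11, which were detected on 21 of 21 arrays that were not weak. HSD17B3, the testosterone-making enzyme of the testis, was detected on none. Of 15 genes of steroid synthesis 11 were on the array and 5 were tested, namely STARD3, CYP17A1, FDXR, POR and TSPO, while HSD3B1 was detected on none and HSD3B2 on 1 array.

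Of 15 genes that make, remove or carry steroid sulfates, 10 were on the array and 9 tested, among them SULT1A1, PAPSS1 and PAPSS2, the last pair making the sulfate donor. Of 14 reductases and other oxidoreductases 9 were on the array and 6 tested, with H6PD, which feeds HSD11B1 its cofactor, detected on 10 arrays. AKR1C1 was detected on 3 and SRD5A2 on 1. Of 9 genes of catabolism and conjugation 8 were on the array and 2 tested. Of 16 receptors and chaperones 6 were on the array and 5 tested, and ESR1, PGR and NR3C2 were not found by symbol or gene ID. Of 12 steroid-responsive genes 9 were on the array and 8 tested.

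Medians are given for 6 of the 7 lists. At day 6 the median conception minus non-mated difference over all features was -0.00062. It was -0.16 over the HSD17B list (2 higher, 2 lower), -0.02 over synthesis (2 and 3), -0.60 over sulfation (3 and 6), -0.53 over the reductases (2 and 4), 0.06 over the receptors (4 and 1) and -0.55 over the responsive genes (1 and 7). For day 6 minus day 2 in conception cycles the median over all features was -0.03. These lists in the same order gave -0.14 (2 higher, 2 lower), 0.18 (3 and 2), -0.39 (2 and 7), -0.55 (2 and 4), 0.15 (4 and 1) and -0.35 (1 and 7). At day 2 the conception minus non-mated medians ran from -0.52 (reductases) to 0.63 (responsive genes) over these lists, and at day 4 from -0.31 to 0.41 in the same lists. Sulfation had 5 higher and 4 lower at day 4 (median 0.06), and the responsive genes had 7 higher and 1 lower. The medians over all features were -0.15 at day 2 and -0.02 at day 4, and the weak arrays enter both. Non-mated replicates 1 and 2 of day 4 were weak, while no array of day 6 was, so the signs of these days are not on a like footing. The medians and signs of the lists without the weak arrays are not given. These are counts of signs, not of calls, and the difference between days was not tested for the lists.

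NR3C1, the glucocorticoid receptor, averaged -1.15 ± 0.43 at day 2, -1.04 ± 0.55 at day 4 and -1.13 ± 0.53 at day 6 of conception cycles, and -0.71 ± 1.14, -1.24 ± 0.25 and -1.15 ± 0.23 in non-mated cycles (SD, n = 4 each). Its conception minus non-mated difference was 0.03 ± 0.44 at day 6 (limma adjusted p = 1.00) and -0.44 ± 0.44 at day 2 and 0.20 ± 0.44 at day 4. The groups overlapped at each day.

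CYP17A1, the hydroxylase and lyase on the way to androgens, was the one listed gene called once the weak arrays were left out, and it is singled out here after its values were seen. In conception cycles its levels were -1.88, -2.16, -2.69 and -2.19 on the day 2 arrays, -1.60, -1.41, -1.61 and -2.26 on the day 4 arrays, and -0.83, -0.62, -1.16 and -1.19 on the day 6 arrays. In non-mated cycles they were -1.47, -2.06, 1.04 (weak array) and -3.01 on the day 2 arrays, -0.17 and 3.60 (both weak), -2.52 and -1.85 on the day 4 arrays, and -1.53, -2.04, -2.34 and -1.70 on the day 6 arrays.

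Day 6 minus day 2 in conception cycles was 1.28 in CYP17A1, with an SE of 0.31 and a limma adjusted p of 0.0433 without the weak arrays, when 1.72% of all features were called in either direction and 1.30% of all features were called as higher at day 6. With all 24 arrays the SE was 0.89 and the adjusted p 0.997, since the fit shares one spread over all groups and the weak arrays widened it for this gene. The adjusted p was 0.0630 with only the groups compared and 0.107 with array weights, and over 39 settings it passed 0.05 in 1. With normexp background correction the difference itself was smaller, at 0.60 (SE 0.75; adjusted p = 0.983). The difference was 1.26 and 1.30 within the scan days. Replicates 1, 2 and 4 of conception day 2 were scanned over a single range, against replicate 4 alone at conception day 6. The part of the scan range in this difference was not tested. At day 6 the conception minus non-mated difference was 0.95 ± 0.31 without the weak arrays (limma adjusted p = 0.429), in a comparison that called 0.0249% of features. The mean of 6 natural killer cell markers (of 8 listed) was higher at conception day 6 too, at 0.09 to 0.49, against -1.08 to -0.53 at conception day 2, while at non-mated day 6 it was -0.82 to 0.61. Its part in the CYP17A1 values was not tested.

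**Figure D5:**
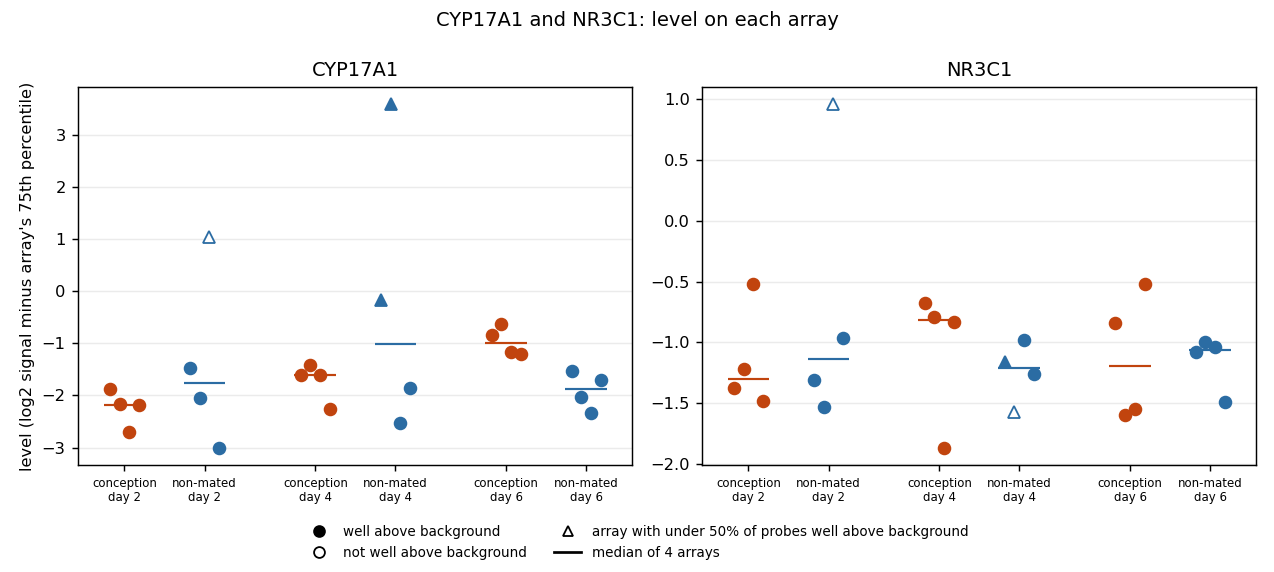
Levels of CYP17A1 and NR3C1 on each array, drawn as in the plot of the enzymes found by symbol. CYP17A1 spans -1.19 to -0.62 at conception day 6, -2.69 to -1.88 at conception day 2 and -2.34 to -1.53 at non-mated day 6. NR3C1 overlaps between the groups.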

How the data were processed

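The 24 deposited scanner files of 1-colour (Cy3) arrays hold an intensity per spot, corrected for background by Agilent Feature Extraction (9.5.3.1 per the file headers, 10.7.3.1 per the submitters' processing notes). Per the labels' protocols, 200 ng of total RNA went into each labelling reaction. A second deposited file holds the authors' processed values, on a log2 scale. Its columns followed the scanner values (r from 0.998 to 1 for deviations from the gene means) and had medians from -0.406 to 2.85. With it, day 6 minus day 2 in conception cycles was 1.28 (SE 0.890) for CYP17A1, against 1.28 (SE 0.891) in the reported fit. It is therefore close to a repeat of the same values and no independent check. How each gene was centred was not established, and the file served as an alternative only.

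Control spots and outlier spots were left out, unless all spots of a probe were flagged. Levels are the mean log2 processed signal of the spots minus each array's 75th percentile, which lay at a signal of 22.8 to 5397. The number of arrays limits the precision. Group means were fitted with limma 3.58.1 (R 4.3.3; 18 residual degrees of freedom), two-sided, with Benjamini-Hochberg adjustment over 12053 features. For F-tests the unadjusted and adjusted p are given. Tables were read and drawn with Python 3.11.15, pandas 2.3.3, numpy 2.4.6 and matplotlib 3.10.9. The fit was tested on simulated data.

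The members and lists were chosen with earlier results of these data known. By the rule for names, all listed members found were named, with up to 4 called genes per list and, whatever their values, steroid receptors including ESR1, PGR, NR3C1 and NR3C2. Some items are not reported here. Other list genes are given by name and detection alone, and CYP17A1 lies outside the rule. Names came from the files, or through gene IDs and accessions in a RefSeq gene table (T2T-MMU8v2.0), used for names only. HSD17B2 was matched by gene ID, HSD17B8 by accession and HSD11B2 by the name 11-BETA-HSD2. Replicate numbers did not pair the samples. The highest correlation among 276 pairs of arrays was 0.975, and no arrays were identical. The arrays lay on 9 slides scanned on 2 days, and 6 arrays, 5 of them from conception cycles, were scanned over a single range.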

Additional observations from a re-analysis of the deposited data

Results flagged for a closer look

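In 5 of 54 combinations of an enzyme and a group of 4 arrays, 1 array stood apart from the other 3 by Dixon's test at its 95% critical value. Chance flags about 1 group in 20. HSD17B4 lay at -0.26 on non-mated day 2 replicate 3, a weak array on which it was not detected, against 1.76 to 2.18 on the others. HSD17B4 also lay at 1.29 on non-mated day 6 replicate 4, against 2.18 to 2.37. HSD11B1 lay at -1.56 on non-mated day 6 replicate 3, well above background there, against -5.27 to -4.82. HSD11B2 lay at 5.65 on conception day 2 replicate 2, against 4.92 to 5.03, and at 5.92 on non-mated day 6 replicate 1, against 5.02 to 5.12.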

How the results depend on the processing

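HSD17B4, AKR1C3, HSD17B2, HSD17B8 and HSD11B2 were not called in any of the 8 comparisons under any alternative in which they were tested. HSD11B1, SULT1E1, SRD5A1 and SRD5A3 were tested with no filter alone and were not called there. Under the alternatives, 1503 values of the first 5, F statistics among them, were counted as unmoved and 9 as moved. A move in a difference meant a change of more than the replicate SD, a yardstick that does not suit F statistics. The values that moved were all in HSD17B4, AKR1C3 and HSD11B2 (5 with quantile normalization, 2 with normexp, 2 with array weights). Many differences could not move, because leaving out an array of another group does not change them. The count of 1503 is therefore no measure of stability. Quantile normalization moved the median of all features to 0.50 at day 2 and 0.40 at day 4 (conception minus non-mated), and to 0.48 for day 6 minus day 2 in non-mated cycles, where the reported scaling gave -0.15, -0.02 and -0.19. Features called for the change over days in conception cycles (1 as reported) numbered 53 with array weights, 57 without the weak arrays, 2 with scan day as a block, and 0 with no filter, normexp, quantile normalization, slide as a fixed block or only the groups compared. Leaving out 1 array gave 0 to 2. For conception against non-mated at day 6 (1 as reported) they numbered 13 with array weights, 3 without the weak arrays, and 0 with no filter, normexp, quantile normalization, slide or scan day as a fixed block or only the groups compared. Leaving out 1 array gave 0 to 4. For day 6 against day 2 in conception cycles (2 as reported) they numbered 223 with array weights, 207 without the weak arrays, 122 with only the groups compared, and 0 with no filter, normexp, quantile normalization or slide as a fixed block. Leaving out 1 array gave 0 to 4, and 3 without non-mated day 2 replicate 3, an alternative added after the data were seen. At day 2 and for the interaction, array weights gave 1 call each, where 0 were reported. With the replicate block the counts were 0 at day 6, 1 for day 6 against day 2 and 1 for the change over days in conception cycles. Same-numbered arrays correlated between -0.317 and 0.465 in their deviations from group means, so the numbers were not taken as pairs. The cause of these changes was not tested. With 4 arrays a group and 4 of 6 enzymes near background, small differences could not be detected.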
